A study of Mus musculus with 4 samples.

Results

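The clock repressors are the negative limb of the circadian clock, the gene loop that gives most mammalian cells a daily rhythm. In this loop BMAL1 (gene Arntl) with CLOCK or NPAS2 binds E-box DNA and activates the Per, Cry, Nr1d and Bhlhe4 genes, whose protein products shut it off. PER and CRY proteins act on the BMAL1-CLOCK complex itself, whereas REV-ERB-alpha and REV-ERB-beta (Nr1d1 and Nr1d2) silence Arntl by occupying the response elements that ROR receptors use. The lung, and its club cells in particular, is known for a strong peripheral clock. The members described here are 10 of the 30743 genes measured in the series: Per1, Per2, Per3, Cry1, Cry2, Nr1d1, Nr1d2, Ciart, Bhlhe40 and Bhlhe41. They were listed by name as clock repressors, each through its array row with the highest mean, and the list was chosen by, that is, drawn up in view of, their log2 differences between BLM and PBS. Each of the 10 has a single row on the array.

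RNA came from the CD45-negative fraction of lung of C57BL/6 mice, that is, from cells without the leukocyte surface marker, and each of 4 samples was hybridised to its own Affymetrix array. The PBS group (n = 2) was taken 10 days after phosphate-buffered saline (PBS), and the BLM group (n = 2) 10 days after bleomycin, a DNA-damaging drug used to produce lung fibrosis; both were given into the trachea. The labels do not give the sex or age of the mice, whether samples of the same treatment are different animals, or the hour at which lungs were taken. The spread between samples may therefore be technical. Clock gene levels change through the day, so a difference in the hour of sampling between the groups and a difference made by the treatment cannot be told apart here. Values are log2 levels as deposited, differences are BLM minus PBS with the standard error (SE) of the limma fit, and a difference of 1 is a 2-fold change if the scale is log2 throughout. The highest values exceed what the scanner can give, so a step in the scale is unstated and the folds printed hold only on that reading.

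The groups also differed in markers that are not on the clock lists. Xist, the RNA of the inactive X chromosome, was at 15.86 and 15.61 in PBS and at 5.6 and 5.43 in BLM. The groups thus also differ in a marker of sex. A difference that goes with sex and a difference made by the treatment cannot be told apart here, for the clock genes as well. Ptprc, the gene of CD45, lay at 6.30 and 6.21 against 7.19 and 7.20, near the median of all genes (6.02). Over all genes 24.9% passed an adjusted p of 0.05 in limma, 14.9% higher and 10.0% lower. Of 5 leukocyte markers 4 rose, and their summed level (log2 of the sum) was 8.47 to 8.54 on the PBS arrays and 9.69 to 9.87 in BLM. All 6 macrophage markers passed, 5 of them higher. Without Lyz2, which lung epithelium also expresses and which fell, their summed level was 9.18 to 9.35 against 11.35 to 11.40. None of 4 lymphocyte markers passed in limma, with 1 at an unadjusted p under 0.05 (summed level 7.17 to 7.18 against 7.20 to 7.25). Of 5 epithelial markers 3 fell, with a list median of -0.69: Scgb1a1, the main secretory protein gene of club cells, at -1.68, Epcam at -0.96 and Cdh1 at -0.69. Their summed level (19.91 to 20.14 against 19.96 to 20) is carried by Sftpc, which did not pass. Of 5 endothelial markers 1 rose and 1 fell (summed level 16.87 to 17.05 against 17.13 to 17.29). Of 4 mesenchymal markers 3 rose, with a list median of 2.08: Col1a1 by 4.28, Pdgfrb by 2.88 and Msln by 1.28. Their summed level (16.50 to 16.51 against 16.93 to 16.99) is carried by Acta2, which did not pass. No marker was listed at 0, and apart from Msln the epithelial, endothelial and mesenchymal markers were well above the median of all genes on every array. The part of these shifts in the results on clock genes was not tested, and in such bulk RNA fewer cells of a type and less RNA per cell cannot be told apart.

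The loop is known to close at the promoters of the repressors. The stretches with a match hold the letters of elements that clock factors are known to bind. Whether such factors act on these genes through these particular matches was not tested. RefSeq promoters (GRCm38.p6, 250 bases before to 50 after each annotated start) were at hand for 8 of the 10 genes; Per2 and Bhlhe40 had none in the table. They were searched on both strands for the E-box CACGTG, its variant CACGTT (the E'-box, AACGTG on the other strand), the D-box TTATGTAA or TTACGTAA, the ROR element core TAGGTCA, the cyclic AMP element TGACGTCA and the glucocorticoid element, written as GNACA, any 3 bases and TGTNC. An E-box was found in 4 of 8 genes, Per1, Cry1, Ciart and Bhlhe41, while 8.09% of all 27025 genes with a promoter have one. The E'-box was found in Cry1, Cry2 and Nr1d1 (5.44% of all genes) and the D-box in Per3 (1.23%). In none of the 8 were the letters of the ROR core (2.97% of all genes), the cyclic AMP element (2.03%) or the glucocorticoid element (0.537%) present. Capitals mark the matches below, each stretch reads 5′ to 3′ on the gene's strand, and all lie before the start. The Ciart stretch (chr3:95882247-95882364, minus strand) has 3 E-boxes. Those of Per1 (chr11:69098763-69098808, plus strand) and Bhlhe41 (chr6:145865548-145865593, minus strand) have 1 each, and that of Cry1 (chr10:85185089-85185153, minus strand) has an E'-box followed by an E-box. The Cry2 (chr2:92434210-92434255, minus strand) and Nr1d1 (chr11:98775380-98775425, minus strand) stretches have an E'-box, and that of Per3 (chr4:151044796-151044890, minus strand) has 2 D-boxes, the element bound by DBP, TEF, HLF and NFIL3. A match describes the letters only and does not show that a factor was bound.
Ciart: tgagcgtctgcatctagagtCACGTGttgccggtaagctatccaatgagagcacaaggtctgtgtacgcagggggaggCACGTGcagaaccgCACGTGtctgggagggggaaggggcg
Per1: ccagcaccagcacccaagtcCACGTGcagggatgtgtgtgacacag
Bhlhe41: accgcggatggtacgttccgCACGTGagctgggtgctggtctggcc
Cry1: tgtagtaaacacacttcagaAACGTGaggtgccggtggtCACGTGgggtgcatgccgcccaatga
Cry2: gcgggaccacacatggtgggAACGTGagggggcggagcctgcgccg
Nr1d1: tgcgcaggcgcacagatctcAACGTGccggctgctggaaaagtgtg
Per3: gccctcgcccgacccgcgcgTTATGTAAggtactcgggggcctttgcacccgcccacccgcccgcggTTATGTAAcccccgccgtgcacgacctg

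After bleomycin, 9 of the 10 repressors lay lower on both BLM arrays than on either PBS array, and Bhlhe40 alone lay higher on both. The median difference of the 10 was -1.49, against 0.05 over all genes. In the fit over all genes 9 of the 10 were past an adjusted p of 0.05, a threshold passed by 24.9% of genes. Of these 8 were lower (10.0% of all genes) and 1 was higher (14.9%), and 6 were lower by at least 1 log2 unit (2.33%). The groups did not overlap for any of the 10 members, as for 63.1% of all genes; 9 members lay lower without overlap (25.3% of all genes) and 1 higher (37.8%). Because the list was drawn up with this comparison known, these counts describe the members and test nothing.

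**Figure D1:**
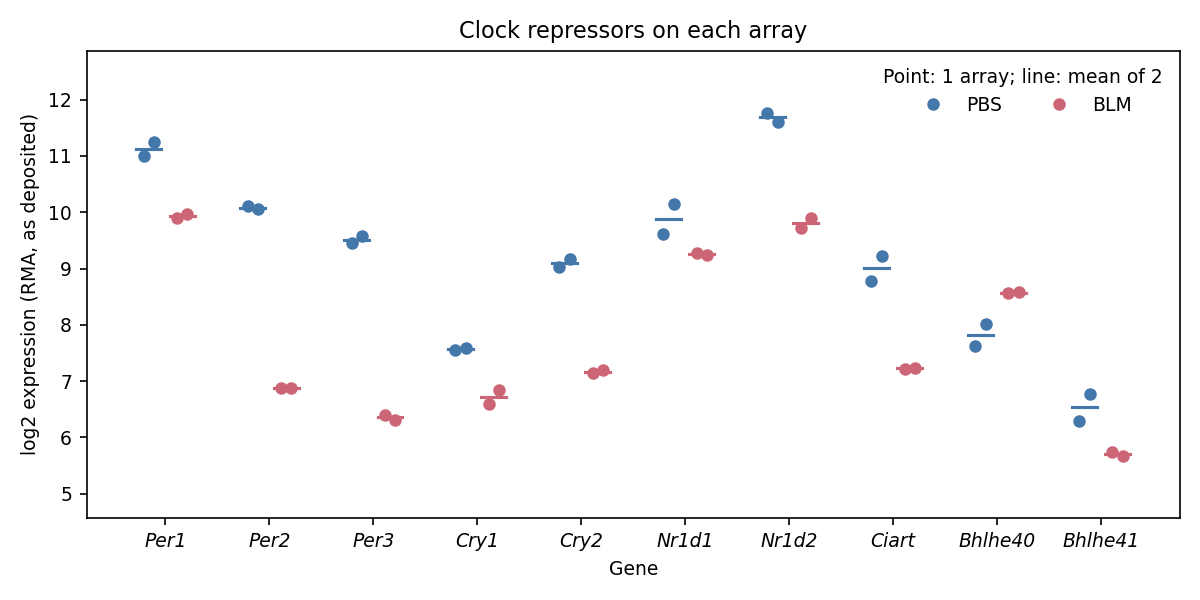
Log2 expression as deposited (y axis) of the 10 clock repressors (x axis) on each array, PBS in blue and BLM in red; points are arrays and short lines the mean of 2. The BLM points of 9 genes sit below both PBS points and those of Bhlhe40 above them; levels of different genes are read by different probes and are not comparable with each other.

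The Period genes encode the proteins whose slow build-up times the loop. Per2 lay at 10.11 and 10.05 in PBS and at 6.88 on both BLM arrays, a difference of -3.19 (SE 0.08), or 9.15-fold lower. Only 7 of the 30743 genes had a lower difference. Per3, the member of the family least needed for rhythm in mice, lay at 9.45 and 9.58 against 6.40 and 6.31, a difference of -3.16 (SE 0.09). It came directly after Per2 in the order of all genes. Per1, which also responds quickly to glucocorticoids and cyclic AMP, lay at 11.00 and 11.24 against 9.90 and 9.96. Its difference of -1.19 (SE 0.11), 2.28-fold lower, was smaller in size than that of Per2 by 2 log2 units. Both arrays of a group lay close together for all 3 genes, by at most 0.24, so the groups stood far apart relative to the gap within them.

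The Cryptochromes are the strongest repressors of BMAL1-CLOCK. Cry2 lay at 9.03 and 9.17 in PBS and at 7.14 and 7.20 in BLM, 3.79-fold lower (difference -1.92, SE 0.09). Cry1, whose peak comes late in the cycle in mouse tissues, lay at 7.55 and 7.59 against 6.59 and 6.84 (difference -0.85, SE 0.11). The BLM arrays differed more for Cry1 (0.26) than for any other member, and both still lay below the PBS arrays. Ciart encodes CHRONO, a repressor that binds BMAL1 without belonging to either family. It lay at 8.78 and 9.23 against 7.21 and 7.24, a difference of -1.78 (SE 0.16), or 3.44-fold lower.

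The REV-ERB genes encode haem-binding nuclear receptors without an activating function. Nr1d2 lay at 11.77 and 11.61 in PBS and at 9.72 and 9.89 in BLM, 3.70-fold lower (difference -1.89, SE 0.11). Nr1d1 lay at 9.61 and 10.14 against 9.27 and 9.24, a difference of -0.62 (SE 0.18, 95% interval -1.08 to -0.17). It was the member that did not pass the threshold and the one whose PBS arrays lay farthest apart. Its difference was -0.36 without PBS replicate 2 and -0.88 without PBS replicate 1. The paralogues thus differed in size by 1.27 log2 units, with the lower side shared.

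The DEC genes encode basic helix-loop-helix proteins that compete for E-boxes, and they were the paralogues on opposite sides. Bhlhe40 (DEC1), which hypoxia and TGF-beta are also known to induce, lay at 7.63 and 8.02 in PBS and at 8.56 and 8.58 in BLM. The difference of 0.74 (SE 0.14) makes it 1.67-fold higher. Bhlhe41 (DEC2) lay at 6.30 and 6.77 against 5.74 and 5.67, a difference of -0.83 (SE 0.17). The BLM values of Bhlhe41 lay below the median of all genes, 6.02, where RMA compresses differences toward 0. Both lost the threshold when either BLM array was left out, with differences of 0.73 to 0.76 for Bhlhe40 and -0.87 to -0.79 for Bhlhe41. Without PBS replicate 1 or 2 the values were 0.55 and 0.94 for Bhlhe40 and -1.06 and -0.60 for Bhlhe41, past the threshold in each case.

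The order of the 10 by difference therefore ran Per2, Per3, Cry2, Nr1d2, Ciart, Per1, Cry1, Bhlhe41, Nr1d1 and Bhlhe40. The differences of Per2 and Per3 lay within each other's 95% intervals, as did those of Cry2, Nr1d2 and Ciart. Those of Cry1, Bhlhe41 and Nr1d1 did so as well, so the order inside these 3 sets is not resolved. The 95% interval of Per1 (-1.47 to -0.91) overlapped those of Ciart, Cry1, Bhlhe41 and Nr1d1, and its place in the order was not tested.

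**Figure D2:**
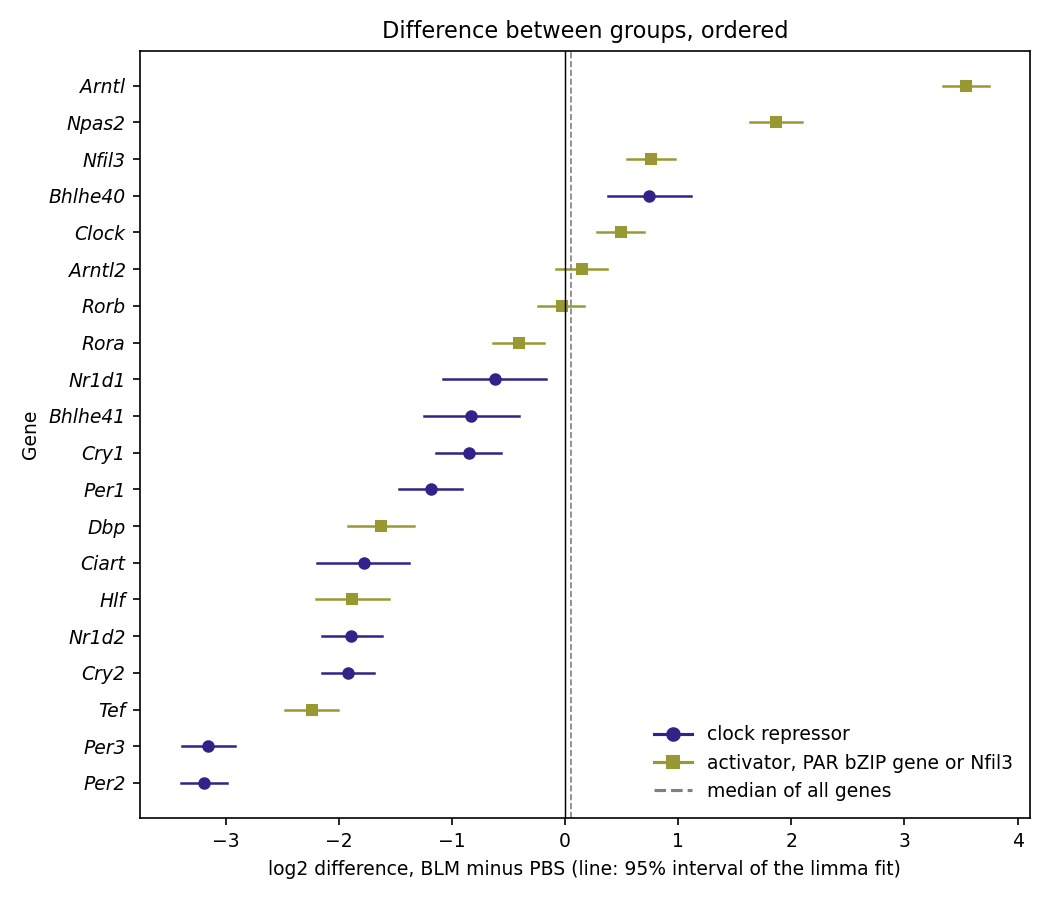
Log2 difference, BLM minus PBS (x axis), of the clock repressors (circles) and of the activators, PAR bZIP genes and Nfil3 (squares), ordered by size on the y axis; lines are 95% intervals of the limma fit and the dashed line is the median of all genes, 0.05. Per2 and Per3 stand at the low end near -3.2 and Arntl at the high end at 3.54.

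The arrays of a group were not equally close for all members. Replicate 2 of PBS lay above replicate 1 for 8 of the 10 genes, while it did so for 47.1% of all genes. This was not particular to the repressors: it held for 17 of 17 immediate early and stress genes, 11 of 12 clock output genes and 12 of 17 modifiers of PER and CRY. The gap was 0.53 for Nr1d1, 0.47 for Bhlhe41, 0.46 for Ciart and 0.39 for Bhlhe40. The median size of the gap was 0.20 in PBS and 0.06 in BLM, beside 0.12 and 0.10 over all genes. Per2 and Nr1d2 ran the other way in PBS, by -0.06 and -0.16. The replicates of a group have no order.

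**Figure D3:**
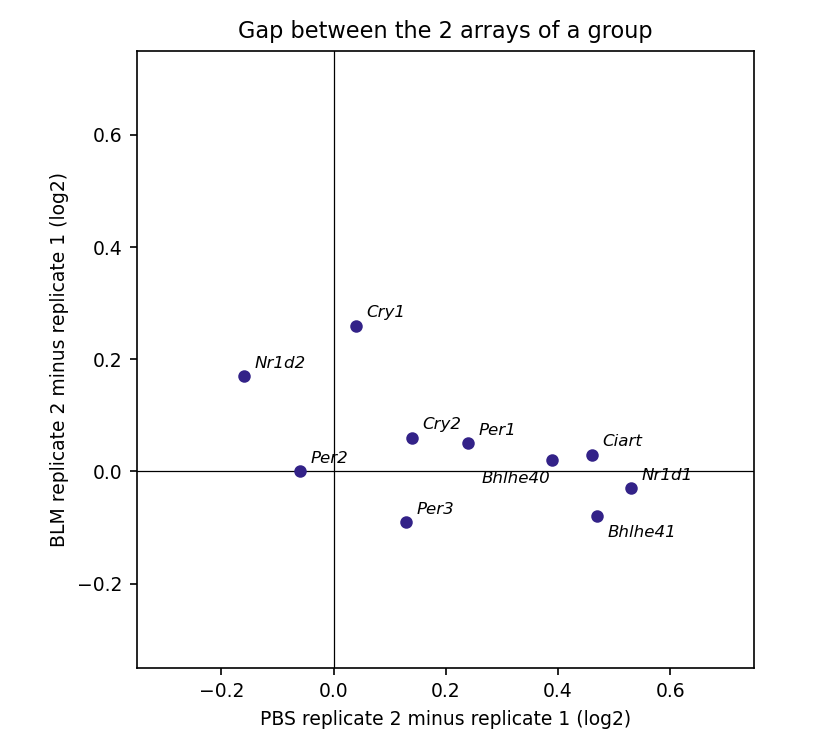
For each clock repressor, replicate 2 minus replicate 1 in log2 units within PBS (x axis) and within BLM (y axis). Nr1d1, Bhlhe41, Ciart and Bhlhe40 lie at 0.39 to 0.53 on the PBS axis and within 0.08 of 0 on the BLM axis.

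In the same fit Arntl, Npas2, Clock and Nfil3 of the other arm of the loop rose, and Rora, Tef, Hlf and Dbp fell. These genes were also listed with earlier results of these data known, so their adjusted p values describe them and are no independent test. Among the 10 activators, PAR bZIP genes and Nfil3 on the array, 4 rose, 4 fell and 2 missed the threshold. Over all genes 24.9% passed it, 14.9% higher and 10.0% lower. Arntl, the gene of BMAL1, lay at 7.07 and 7.09 in PBS and at 10.60 and 10.65 in BLM. It rose by 3.54 (SE 0.08, adjusted p = 0.000188), or 11.7-fold. Npas2, the partner that can stand in for CLOCK, rose by 1.86 (SE 0.09, adjusted p = 0.000438), from 6.34 and 6.49 to 8.30 and 8.24. Clock itself rose by 0.49 (SE 0.08, adjusted p = 0.0122), a call that ended without either BLM array.

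The ROR receptors activate Arntl through the element that REV-ERB proteins occupy. Rora fell by 0.41 (SE 0.09, adjusted p = 0.0252), but not past the threshold without PBS replicate 2 or either BLM array. Rorb, at a level of 4.64 to 4.71 over the 4 arrays, differed by -0.03 (95% interval -0.24 to 0.17). Arntl2, a BMAL1 paralogue at 5.47 to 5.71, differed by 0.15 (95% interval -0.08 to 0.37). Both genes lay below the median of all genes, 6.02, where RMA compresses differences toward 0. The ROR core letters TAGGTCA were present in the promoters of Arntl and Nfil3, that is, 2 of 10 genes of this arm with a promoter in the table, beside 2.97% of all genes. The Arntl match lies after the annotated start. Of the other motifs, Tef had an E-box, Rorb an E'-box and Hlf a cyclic AMP element, 1 of 10 each.

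The PAR bZIP factors carry the rhythm from E-boxes to output genes through D-boxes, and NFIL3 opposes them there. Tef lay at 9.18 and 9.34 in PBS and at 6.99 and 7.04 in BLM and fell by 2.24 (SE 0.09, adjusted p = 0.000373). Hlf fell by 1.88 (SE 0.13, adjusted p = 0.000855), and Dbp, known for a deep daily swing in many tissues, by 1.63 (SE 0.11, adjusted p = 0.000963). Nfil3, which REV-ERB proteins repress as they do Arntl, rose by 0.76 (SE 0.08, adjusted p = 0.00305), from 5.02 and 5 to 5.73 and 5.81, levels in the dim range. The 3 PAR bZIP genes thus lay on the side of the repressors, and Nfil3 on the side of Arntl.

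**Figure D4:**
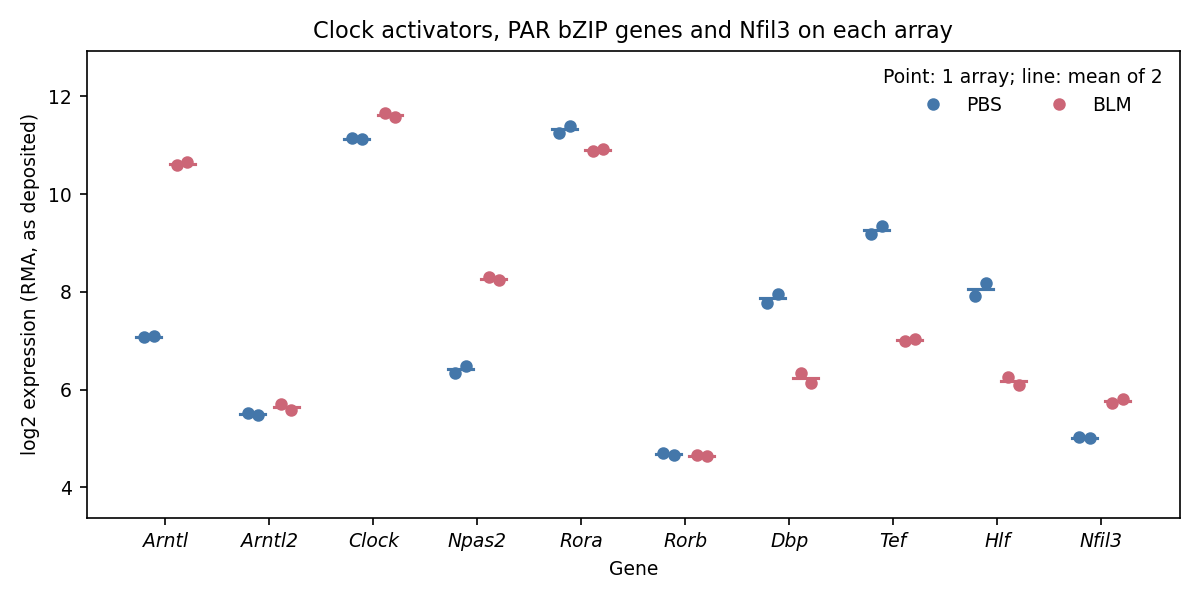
Log2 expression as deposited (y axis) of 10 clock activators, PAR bZIP genes and Nfil3 (x axis) on each array, PBS in blue and BLM in red; points are arrays and short lines the mean of 2. Arntl, Npas2, Clock and Nfil3 sit higher in BLM and Tef, Hlf, Dbp and Rora lower, while Rorb and Arntl2 differ by at most 0.15.

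PER and CRY proteins are also controlled after they are made, through phosphorylation and breakdown. Of 17 kinases, ubiquitin ligases and other modifiers of PER and CRY, 3 rose, 4 fell and 10 missed the threshold, which 24.9% of all genes passed, and the median size of their differences was 0.17 (0.19 over all genes). Prkaa2, a catalytic subunit gene of the AMP-activated kinase that marks CRY for breakdown, fell by 1.28 (SE 0.10, adjusted p = 0.00118). Usp2, a clock-driven deubiquitinase gene, fell by 0.97 (SE 0.11, adjusted p = 0.00384). Gsk3b stood at -0.52 and Prkaa1, the other catalytic subunit gene, at 0.54; these calls ended without some single arrays. The kinase genes Csnk1d and Csnk1e, which time PER breakdown, differed by -0.00 (95% interval -0.23 to 0.22) and -0.04 (-0.24 to 0.17). Without BLM replicate 1 the count past the threshold was 2, without BLM replicate 2 or PBS replicate 1 it was 3, and without PBS replicate 2 it was 4. Of 4 measured parts of the REV-ERB corepressor complex, Tbl1x rose by 0.74 (SE 0.09, adjusted p = 0.00354), Gps2 stood at 0.40 and Tbl1xr1 at -0.41. The histone deacetylase gene Hdac3 differed by 0.04. The calls of Gps2 and Tbl1xr1 ended without some single arrays of each group, and that of Gps2 also with cyclic loess (0.29). With single arrays left out the differences were 0.34 to 0.46 for Gps2 and -0.45 to -0.38 for Tbl1xr1. For Tbl1x they were 0.70 to 0.79. Tbl1x lies on the X chromosome, and the groups also differ in Xist.

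Genes downstream of the clock lay mostly on the side of the repressors. Among 12 output genes that cycle in several tissues, 8 fell, 1 rose and 3 missed the threshold (median -0.91). Of all genes 10.0% fell and 14.9% rose past it. The groups also differ in Xist, and without X and Y genes 6 of 10 output genes fell and 1 rose (median -0.79). Wee1, the cell cycle kinase gene driven from E-boxes, fell by 2.60 (SE 0.08, adjusted p = 0.000279), from 10.76 and 10.80 to 8.16 and 8.22. The flavin monooxygenase gene Fmo2 fell by 2.16 (SE 0.10, adjusted p = 0.00042) and Herpud1, of the endoplasmic reticulum stress response, by 1.63 (SE 0.09, adjusted p = 0.000495). The gene that rose was Cdkn1a, by 2.88 (SE 0.11, adjusted p = 0.000329), a cell cycle inhibitor gene that p53 also induces after DNA damage. The lists overlap and are not separate evidence. Of the output genes, Usp2 is also counted among the modifiers, and Tsc22d3, Fkbp5 and Pdk4 among the glucocorticoid-induced genes below.

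Inducers shared with single repressors were described through 3 further lists, of which the glucocorticoid and immediate early lists share Dusp1. Over all genes 14.9% rose and 10.0% fell past the threshold. Glucocorticoids induce Per1, and of 12 genes they induce 7 fell, 2 rose and 3 did not pass (median -0.47). Without X and Y genes 6 of 11 fell and 2 rose (median -0.34). Zbtb16 stood at -2.33 (SE 0.09, adjusted p = 0.000314), Pdk4 at -1.46 (SE 0.10) and Errfi1 at -1.05 (SE 0.09), all past the threshold, whereas Angptl4 rose by 1.69 (SE 0.09). Fkbp5, a widely used target, differed by -0.20 (95% interval -0.43 to 0.02, adjusted p = 0.167). Without either BLM array 5 of the 12 passed, and without PBS replicate 2 there were 6. Hypoxia induces Bhlhe40, and of 12 genes it induces 6 rose, 3 fell and 3 did not pass (median 0.34). Without X and Y genes 5 of 11 rose and 3 fell (median 0.24). The genes that rose included Ankrd37 at 2.67 (SE 0.09), Ndrg1 at 1.37 (SE 0.09), Adm at 1.24 (SE 0.13) and Egln3 at 0.72 (SE 0.11), while Vegfa differed by 0.03. There were 4 past the threshold without either BLM array. Immediate early genes respond to tissue dissociation, and 3 of 17 rose, 5 fell and 9 missed the threshold (median -0.18). Atf3 stood at -1.2 (SE 0.08), Ier2 at -0.82 (SE 0.08) and Klf6 at -0.81 (SE 0.10), all past the threshold, while Ier3 rose by 0.83 (SE 0.17), a call that ended without BLM replicate 2. Fos stood at -0.50 and Fosb at 0.15. Without BLM replicate 1 there were 5 past the threshold, without BLM replicate 2 there were 4, and without PBS replicate 1 there were 5. Whether any of these inducers has a part in the repressors' values was not tested.

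**Figure D5:**
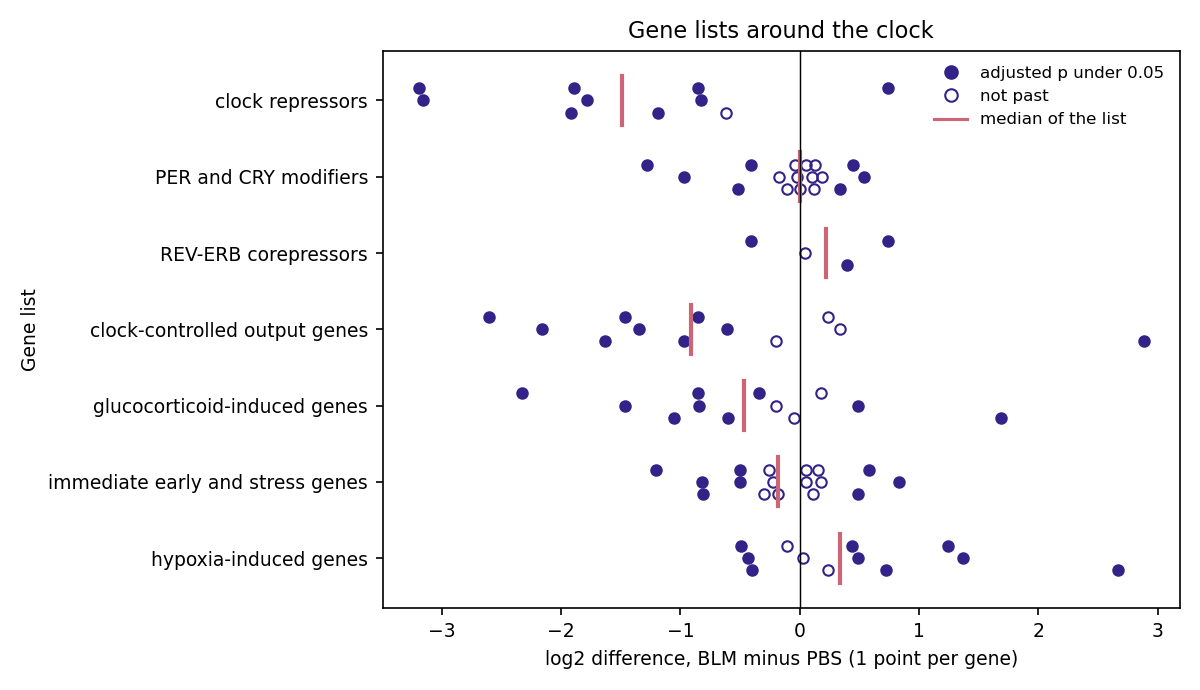
Log2 difference, BLM minus PBS (x axis), for each gene of the clock repressors and of 6 lists around the clock (y axis); filled points were past an adjusted p of 0.05, open points were not, and red lines are list medians. The repressors (median -1.49) and the output genes (median -0.91) lie mostly to the left of 0, and the modifiers spread around it.

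The outermost members were compared over the 4 arrays with all genes that have no Gm, LOC or Rik name. The nearest were those with the smallest root mean square distance between profiles centred on their own mean. For Per2 these were Eid3 (distance 0.0461), Per3 (0.0774) and the amino acid transporter gene Slc38a4 (0.100). Eid3 lay at 9.31 and 9.35 in PBS and at 6.08 and 6.12 in BLM. For Bhlhe40 the nearest were Mrpl49 (0.00693), Cyp2j9 (0.0113) and Kctd12b (0.0152). With 4 arrays in 2 groups, such likeness rests largely on the difference between the groups.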

How the data were processed

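Per the labels' protocols, biotin-labelled RNA was read on Affymetrix arrays. The deposited log2 values come, per the submitters' processing notes, from RMA and Affymetrix Expression Console as run by the authors. Program versions, the array's genome build and any step after RMA were not given in the sources used here. Between 669 and 704 rows per array exceed 16, more than a 16-bit scanner can give, so the scale holds a step that is not stated. The number of arrays limits the precision, and no detection calls were used.

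Of 65956 transcript cluster rows, 30604 had 1 gene symbol and 612 more resolved to 1 gene through RefSeq identifiers and older names, among them Ciart (also listed as Gm129). Rows with several genes (1534) or no symbol stayed out. The row with the highest mean was kept per gene, leaving 30743 genes, 30438 of them in the RefSeq table.

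limma 3.58.1 in R 4.3.3 (lmFit, eBayes, default prior, two-sided) was fitted to all 4 arrays, adjusting p by Benjamini-Hochberg over every gene and calling those under 0.05. There were 2 residual and 3.32 prior degrees of freedom, and the median SE was 0.0973. The script was tested on simulated data. The members and all gene lists were chosen with earlier results of these data known. The genes named were all members, activators and PAR bZIP genes, up to 4 genes per other list with the largest difference among those past the threshold, and the 3 nearest profiles. Genes with Gm, LOC or Rik names were left out of the search for nearest profiles. Csnk1d, Csnk1e, Hdac3, Fkbp5, Vegfa, Fos and Fosb were named after their values were seen. Some genes of the lists are not reported here, and counts are over those measured. Alternatives were the replicate block, each array left out, a filter on dim genes, row means, a trended robust prior, median centring, cyclic loess and leaving out X and Y genes; using symbols only as written was added after seeing the data.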

Additional observations from a re-analysis of the deposited data

How the results depend on the processing

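All 10 repressors kept their side of 0 under the 12 alternatives (11 for Ciart, which has no row with symbols only as written). Most of these alternatives could not have changed the side. The groups did not overlap for any repressor, so leaving out a single array keeps it. Of the rest, only median centring and cyclic loess change the difference of a repressor. The number past the threshold was 9, 7 to 10 with single arrays left out, and 8 of 9 with symbols as written. Arntl, Npas2, Tef, Hlf and Dbp kept their calls under every alternative. The number of activators, PAR bZIP genes and Nfil3 past the threshold was 8, and 6 to 8 with single arrays left out. Of all genes 7660 passed, 3949 to 5867 with single arrays left out (3949 with the first BLM array left out and 4345 with the second). Higher calls made up 59.8% of the total as deposited and 49.5% with cyclic loess, which moved the median difference of all genes from 0.05 to 0. Nr1d1 passed the threshold under it (-0.73), with the filter on dim genes (-0.62) and without PBS replicate 1 (-0.88), which made 10 of 10 repressors in each, and Clock stood at 0.32 with cyclic loess.

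The replicate numbers do not pair the samples by the labels, and over all genes the gap between replicates in PBS correlated with that in BLM at r = 0.0097. With the replicate block 6750 genes passed, with 9 of the repressors and 8 of the other clock genes as before.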
